A study of Mus musculus with 16 samples.

Results

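The cytochrome P450 enzymes of newborn mouse liver and lung were described across 16 RNA sequencing libraries. Members were the entries of the count table whose symbol has the form of a mouse P450 gene, leaving out pseudogenes and the 3 symbols Cyp2f2, Cyp4a10 and Cyp4a14. The rule took 97 of 25054 entries, under 96 symbols, since Cyp3a41a stood on 2 entries. Of these, 54 reached a mean of 1 count per 1000000 counts (CPM) over the libraries with a clear tissue content, 19 stayed below that mean while exceeding 3 counts in at least 1 library, and 24 never exceeded 3 counts in any library. Cyp11b1, Cyp19a1, Cyp24a1, Cyp2c66, Cyp2d34, Cyp2j11, Cyp2j13, Cyp4a29, Cyp4a30b, Cyp4f37 and Cyp4f40 were 0 in every library, which allows up to 3 counts in each.

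The study compared pups of a C57BL/6J line with a null allele of Man1a2, a Golgi mannosidase that trims N-linked sugar chains, after gestational N-acetylcysteine (NAC, an antioxidant that restores glutathione) at 1 g/kg or placebo water. Both parents drank it from a week before breeding until delivery. The pup groups were WT (wild type) and heterozygous pups that lived and heterozygous and null pups that died, with the dead pups collected during 24 h of checks at 8 h intervals and the live pups at the end of that time. Each pup group, treatment and labelled tissue gave 1 library, made from RNA pooled over 3 experiments, or 2 for dead heterozygous pups, so the spread between libraries includes the spread between pools and no group has a replicate of its own. The null allele lacks part of the gene, and counts were given per gene, so the level of Man1a2 does not check the genotype labels: it lay between 34.3 and 60.4 CPM in the 4 dead null libraries and between 29.7 and 75.4 CPM in the other 12.

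Cytochrome P450 enzymes are heme proteins that insert an oxygen atom into lipids, steroids, vitamins and foreign compounds. Most sit in the endoplasmic reticulum and take electrons from the reductase Por, while those of the mitochondrion take them from ferredoxin (Fdx1) and its reductase (Fdxr). The liver holds the greatest variety of them, many of which switch on around birth, and the lung keeps a smaller group of its own.

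The tissue labels did not hold for many libraries. By the marker rule used here, lung content means at least 1000 CPM of Sftpc, a surfactant protein of the alveolus, with under 1000 CPM of Alb, and liver content means at least 50000 CPM of Alb, the albumin of hepatocytes. Of the 8 libraries labelled lung, 3 held lung content and 4 liver content. Of the 8 labelled liver, 4 held liver content and 4 lung content. The library labelled dead null placebo lung was mixed, with 5553 CPM of Sftpc and 9280 CPM of Alb. Liver content thus came from 8 libraries (the labelled lung libraries live WT placebo, live heterozygous placebo, dead heterozygous NAC and dead null NAC, and the labelled liver libraries live WT NAC, live heterozygous NAC, dead heterozygous placebo and dead null NAC), with 0.06 to 3.1 CPM of Sftpc. Lung content came from 7 (the labelled lung libraries live WT NAC, live heterozygous NAC and dead heterozygous placebo, and the labelled liver libraries live WT placebo, live heterozygous placebo, dead heterozygous NAC and dead null placebo), with 10.5 to 135 CPM of Alb. Whether the pup group and treatment labels of the 9 libraries that went against their tissue label are right was not tested, and every direction below rests on them. Libraries held 7236865 to 16107749 counts, of which the ribosomal RNA symbol Rn45s took 0.85% to 26.2%. All levels below are CPM scaled by trimmed mean of M-values (TMM) over the 16 libraries. In bulk RNA, fewer cells of a type and less RNA per cell cannot be told apart.

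The sequences shown here are those of the CYP1 genes that differed between NAC and placebo libraries of lung content, and of 3 neighboring Cyp3a genes of liver content with closely alike promoters. Each is the 250 bases before the RefSeq gene start (GRCm38.p6), 5′ to 3′ on the gene's strand. In the CYP1 promoters the capitals mark GCGTG on either strand, the core that the aryl hydrocarbon receptor recognizes. It lay 54 bases before the start of Cyp1a1 and 76 before that of Cyp1b1, where it is on the opposite strand (CACGC).
Cyp1a1 (chr9:57697363-57697612, plus strand): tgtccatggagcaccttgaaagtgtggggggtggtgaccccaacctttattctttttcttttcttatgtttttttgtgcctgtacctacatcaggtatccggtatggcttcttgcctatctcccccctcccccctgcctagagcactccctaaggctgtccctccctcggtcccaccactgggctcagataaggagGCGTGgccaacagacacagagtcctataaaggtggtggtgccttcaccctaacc
Cyp1b1 (chr17:79715062-79715311, minus strand): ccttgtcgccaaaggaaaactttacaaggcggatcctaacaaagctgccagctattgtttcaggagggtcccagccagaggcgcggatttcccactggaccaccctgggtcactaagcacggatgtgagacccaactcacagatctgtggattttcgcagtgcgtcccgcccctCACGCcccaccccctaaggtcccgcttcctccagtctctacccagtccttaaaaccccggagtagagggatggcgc

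In the Cyp3a promoters the capitals mark CAAAGTCCA, an element of the kind bound by the liver factor Hnf4a, searched on both strands. It is present in Cyp3a16 and Cyp3a41a and absent from the same stretch of Cyp3a44.
Cyp3a16 (chr5:145469724-145469973, minus strand): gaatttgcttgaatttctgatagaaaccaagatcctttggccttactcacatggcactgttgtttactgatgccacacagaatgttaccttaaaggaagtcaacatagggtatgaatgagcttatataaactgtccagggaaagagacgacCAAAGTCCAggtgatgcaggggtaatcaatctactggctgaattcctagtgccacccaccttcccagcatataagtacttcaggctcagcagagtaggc
Cyp3a41a (chr5:145720137-145720386, minus strand): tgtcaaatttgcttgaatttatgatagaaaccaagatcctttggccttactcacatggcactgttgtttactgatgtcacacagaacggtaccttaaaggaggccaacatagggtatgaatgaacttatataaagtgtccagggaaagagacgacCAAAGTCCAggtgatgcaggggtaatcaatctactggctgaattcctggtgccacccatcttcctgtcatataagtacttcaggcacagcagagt
Cyp3a44 (chr5:145805875-145806124, minus strand): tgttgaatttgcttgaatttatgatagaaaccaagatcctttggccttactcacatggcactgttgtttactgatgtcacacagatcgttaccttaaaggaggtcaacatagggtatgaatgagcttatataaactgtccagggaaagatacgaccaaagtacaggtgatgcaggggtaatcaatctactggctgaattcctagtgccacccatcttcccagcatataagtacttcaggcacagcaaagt

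RefSeq promoters were found for 75 of the 96 symbols, 85 promoters in all. The GCGTG core was in 16 of these 85, beside 28.2% of all 32851 promoters of the same length. CAAAGTCCA was in 11 of the 85 (Cyp2c40, Cyp2c65, Cyp2c67, Cyp2c68, Cyp2c69, Cyp2c70, Cyp3a11, Cyp3a16, Cyp3a41a, Cyp3a41b and Cyp8b1), beside 0.38% of all promoters. The 3 printed Cyp3a promoters were 91.3% to 94.4% identical in pairs, so their matches are not independent of each other. Among the 11, Cyp2c40, Cyp2c67, Cyp2c68 and Cyp2c69 share stretches of transcript with each other, as do Cyp3a41a and Cyp3a41b. Their promoters were not compared, and the 11 cannot be counted as independent matches. A match describes these letters and not a bound site.

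The P450 genes took 0.344% to 0.716% of the counts in liver-content libraries, 0.023% to 0.042% in lung-content libraries and 0.153% in the mixed one. These contents were set from measured markers, so the difference between them is given without a test. Of the 54 members tested, 38 were higher in every liver-content library than in any lung-content library, 5 were higher in every lung-content library, and 11 overlapped. Over the 14175 genes tested these shares were 26.3% and 23.6%. The median difference of log2(mean CPM + 1), liver minus lung, was 4.22 over the 54 members and 0.08 over all genes. A mean of 1 CPM was reached by 54 members in liver content alone but by 22 in lung content alone. Many members thus passed the filter only through the content where they were high, and these counts and the median partly follow from that. The heat map of levels shows this split across the vertical line between the contents, and the plot of one content against the other shows the few members below the line of equal level.

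**Figure D1:**
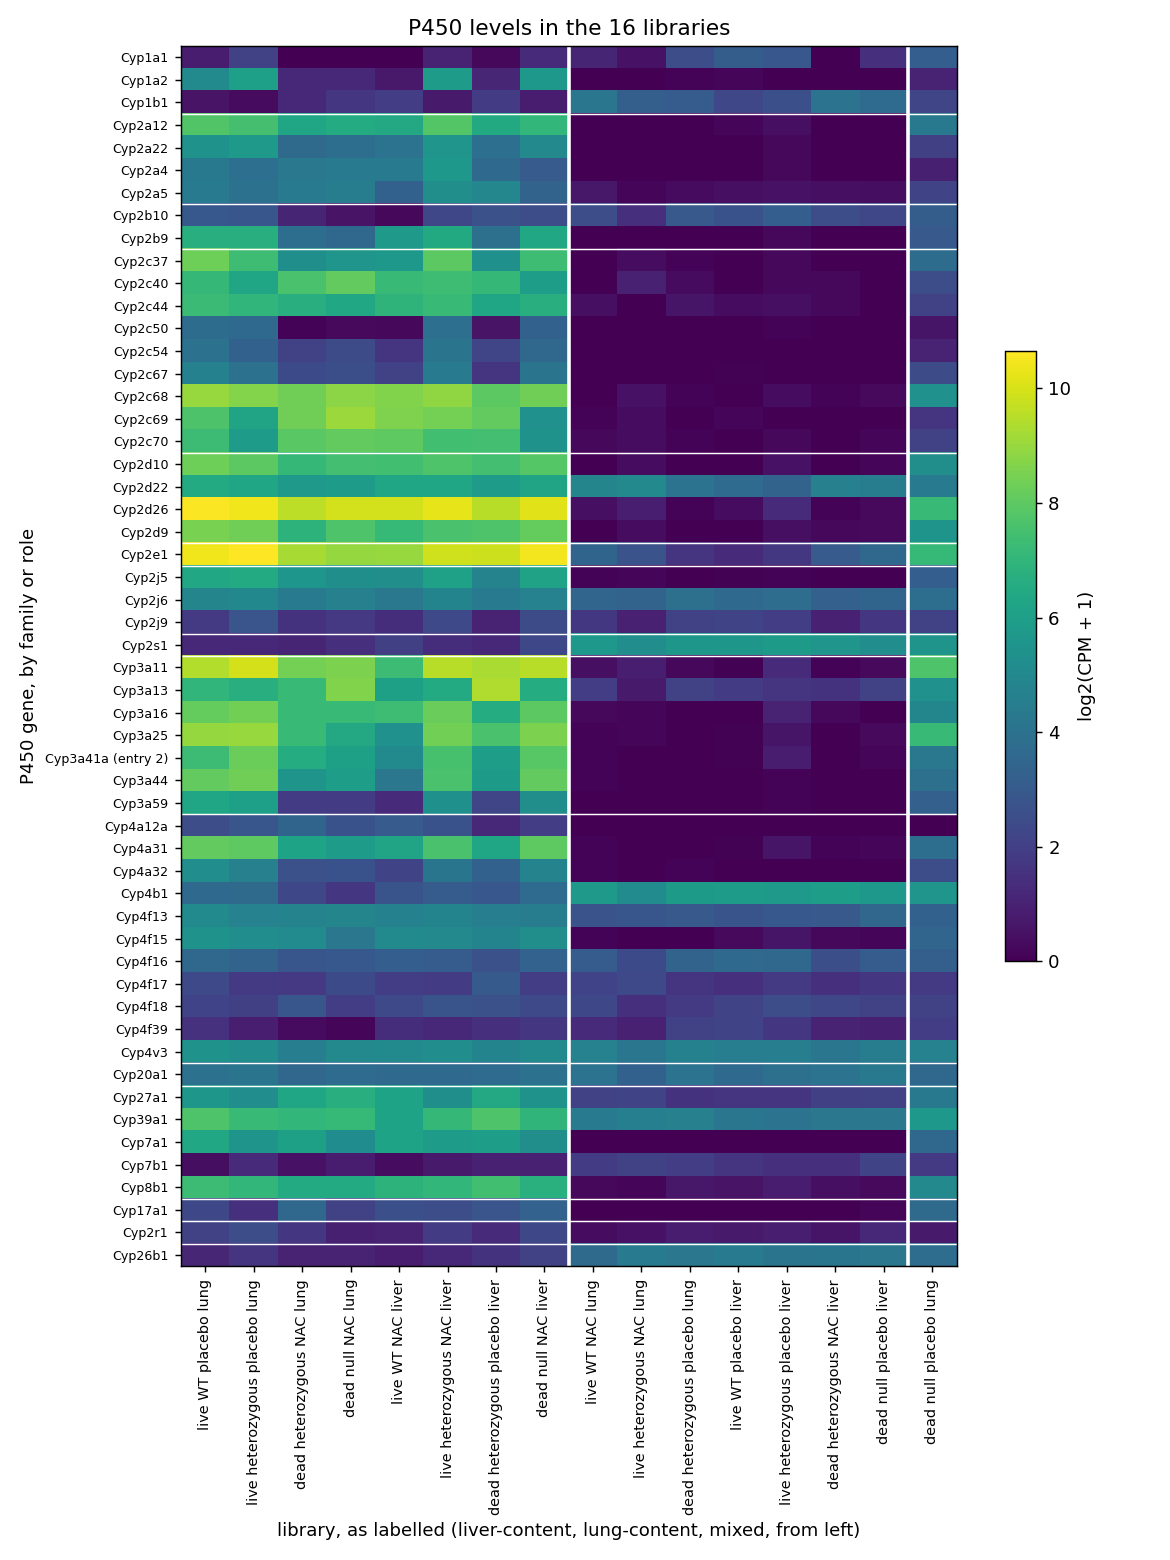
Level of the 54 P450 genes tested, as log2(CPM + 1) by color, in each of the 16 libraries (columns: 8 liver-content, 7 lung-content and 1 mixed, separated by white lines; genes grouped by family or role). Most genes are bright only in the first 8 columns, whereas Cyp4b1, Cyp2s1, Cyp26b1 and Cyp1b1 are brighter in the next 7.

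**Figure D2:**
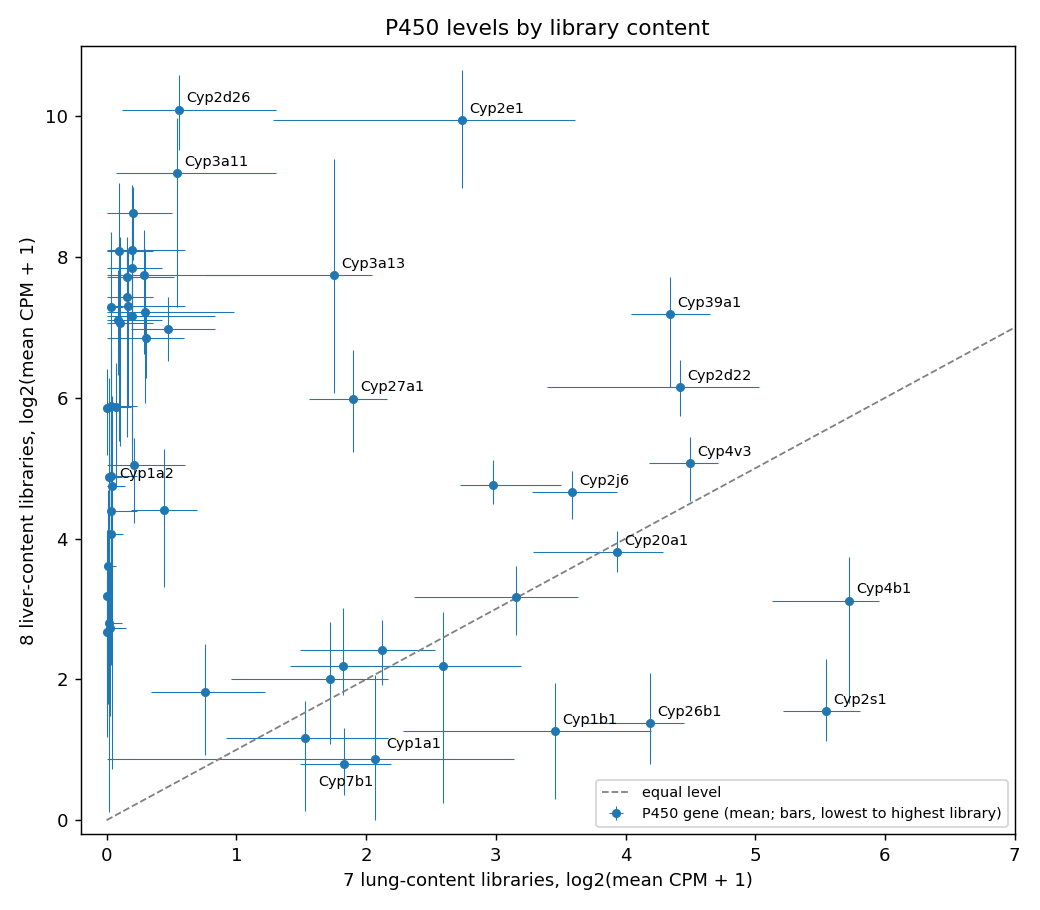
Mean level of the same 54 P450 genes in the 7 lung-content libraries (x axis) and the 8 liver-content libraries (y axis), both as log2(mean CPM + 1), with bars from the lowest to the highest library and a dashed line of equal level. Cyp2d26 and Cyp2e1 stand at the top, and Cyp4b1 and Cyp2s1 farthest to the right.

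Compared per kilobase of merged exons (GENCODE), the highest mean level in liver content was that of Cyp2d26, with 610 CPM per kilobase, followed by Cyp2e1, the ethanol-oxidizing P450, with 457, and by Cyp2c68 with 228, Cyp2c69 with 159 and Cyp3a25 with 132. In lung content the highest were Cyp4b1, a fatty acid and xenobiotic P450 of airway epithelium, with 23.0 CPM per kilobase, and Cyp2s1, an extrahepatic P450, with 9.28. Cyp39a1 (6.31), Cyp20a1 (6.27), Cyp4v3 (5.67) and Cyp2d22 (5.23) followed within a narrow range. Reads of near-identical copies could be divided between them in counting: 15 member entries found in GENCODE shared at least 10% of their windows of 100 bases with another gene, and Cyp3a41a and Cyp3a41b shared 90.8% and 88.2%. Their levels, and those of Cyp2c40, Cyp2c67, Cyp2c68 and Cyp2c69, which share windows with each other, are uncertain as single genes.

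The lung group was small. Cyp4b1 was at 34.0 CPM in live heterozygous NAC lung, 50.2 in dead null placebo liver, 52.2 in live heterozygous placebo liver, 52.9 in live WT NAC lung, 54.2 in dead heterozygous placebo lung, 58.2 in live WT placebo liver and 61.1 in dead heterozygous NAC liver. In liver content it lay between 2.18 and 12.4 CPM, without overlap. Cyp2s1 ranged from 36.1 to 55.0 CPM in lung content and from 1.17 to 3.90 CPM in liver content. Cyp26b1, which clears retinoic acid, ranged from 11.8 to 20.9 CPM in lung content and from 0.74 to 3.26 CPM in liver content. These 3 genes kept a narrow range across the lung-content libraries of live and dead pups alike. Cyp1b1, which oxidizes estrogens and polycyclic hydrocarbons, and Cyp7b1, which hydroxylates oxysterols, were the other 2 members above the liver range, at 3.87 to 17.3 and 1.81 to 3.56 CPM.

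Several members were held at like levels in both contents. Cyp20a1, a P450 of unassigned function, had 8.77 to 18.6 CPM in lung content and 10.6 to 16.2 CPM in liver content. Cyp4f16 had 4.18 to 11.4 and 5.17 to 11.2 CPM, and Cyp4v3, a fatty acid hydroxylase, 17.1 to 25.2 and 22.2 to 42.6 CPM. The remaining overlapping members were Cyp1a1, Cyp2b10, Cyp2c50, Cyp2j9, Cyp2r1, Cyp4f17, Cyp4f18 and Cyp4f39. Overlap did not always mean a like level. Cyp2c50 had 0.0838 to 13.8 CPM in liver content and at most 0.0867 CPM in lung content.

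In liver content the members spread more widely than most genes. Among the 37 members whose mean reached 10 CPM, the highest library exceeded the lowest by a median of 3.44 times, against 1.92 times over all 9340 such genes. Of these members 18 differed at least 4-fold between the highest and the lowest library, beside 7.32% of all genes, and 7 differed at least 10-fold, beside 1.21%. The highest library was the one labelled live WT placebo lung for 15 of the 37 members and live heterozygous placebo lung for 12, whereas these were the highest library for 5.11% and 17.2% of those genes. The lowest library was live WT NAC liver for 11 members, beside 14.2% of the genes.

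Of these 37 members Cyp1a2, the caffeine-oxidizing P450 of the mature liver, spread most. It had 64.0 CPM in live heterozygous placebo lung, 57.0 in live heterozygous NAC liver, 49.9 in dead null NAC liver and 32.3 in live WT placebo lung, but 1.34 in dead heterozygous NAC lung, 1.29 in dead null NAC lung, 1.19 in dead heterozygous placebo liver and 0.648 in live WT NAC liver. High and low libraries were thus found among live and dead pups, among NAC and placebo, and among libraries labelled lung and liver. The groups of this study overlap for this gene under every one of those labels.

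Members of the CYP3A family, the main steroid and drug oxidizing P450s, differed between the same libraries. Cyp3a59 had 77.0 CPM in live WT placebo lung, 64.2 in live heterozygous placebo lung, 39.2 in live heterozygous NAC liver and 37.0 in dead null NAC liver, and 1.39 to 3.66 CPM in the other 4 libraries. Cyp3a44 had 270 CPM in live WT placebo lung, 328 in live heterozygous placebo lung, 191 in live heterozygous NAC liver and 275 in dead null NAC liver, and 17.5 to 59.4 CPM in the others. Cyp3a25, another member of the cluster, ran from 40.6 CPM in live WT NAC liver to 521 in live heterozygous placebo lung. Cyp3a16, a fetal and neonatal form, spread less, from 97.1 CPM in dead heterozygous placebo liver to 334 in live heterozygous placebo lung. Cyp3a11, the major adult form, ran from 156 CPM in live WT NAC liver to 1010 in live heterozygous placebo lung. The 9 Cyp3a symbols lie on chromosome 5, all close together but Cyp3a13, and 7 of the 10 entries had a mean of at least 10 CPM in liver content. Cyp3a41a entry 2 ran from 32.9 to 306 CPM, and entry 1, which has the values of Cyp3a41b, stayed at or below 2.86 CPM.

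Within the CYP2C family, whose members oxidize fatty acids and drugs, genes of one chromosome 19 cluster differed in which libraries were high and which were low. Cyp2c37 had 311 CPM in live WT placebo lung, 251 in live heterozygous NAC liver, 163 in dead null NAC liver and 162 in live heterozygous placebo lung, with 39.0 to 50.9 CPM in the other 4. Cyp2c70, which makes muricholic acids in mice, was lowest in dead null NAC liver with 42.5 CPM and in live heterozygous placebo lung with 58.6, and had 158 to 271 CPM in the other 6. Cyp2c69 likewise had 40.9 and 73.5 CPM in those 2 libraries and 207 to 530 in the rest. Cyp2c50 was at 8.82 to 13.8 CPM in the 4 libraries that were high for Cyp1a2 and at 0.0838 to 0.477 CPM in the rest. Cyp2c68 spread little, from 248 to 512 CPM. Cyp2c67 had 24.9 CPM in live WT placebo lung, 19.4 in live heterozygous NAC liver, 16.1 in dead null NAC liver and 15.0 in live heterozygous placebo lung, and 2.15 to 4.85 CPM in the others. Of the 15 Cyp2c members, 7 had a mean of at least 10 CPM in liver content and 4 never exceeded 3 counts.

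**Figure D3:**
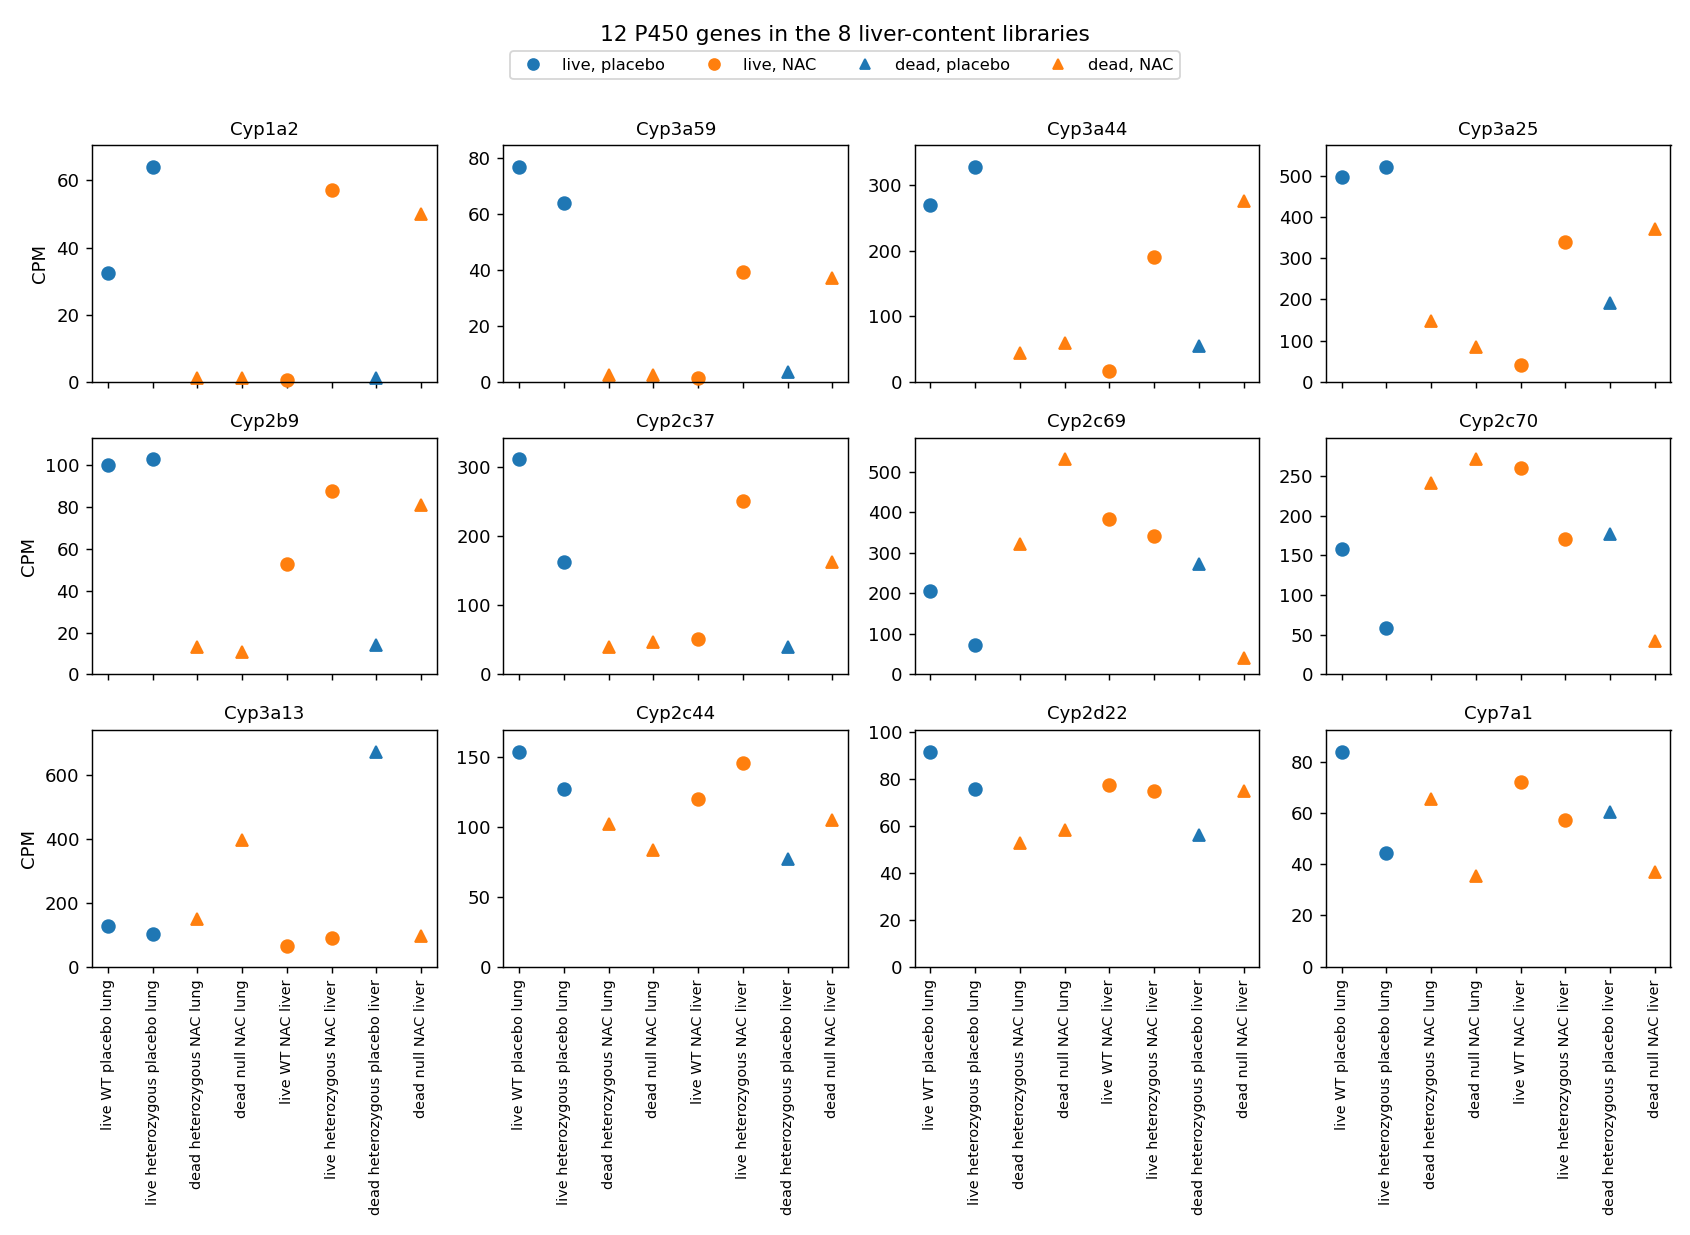
Level in CPM (y axis, from 0) of 12 P450 genes in each of the 8 liver-content libraries (x axis, as labelled), with circles for live and triangles for dead pups and blue for placebo and orange for NAC. Cyp1a2, Cyp3a59 and Cyp3a44 are high in live WT placebo lung, live heterozygous placebo lung, live heterozygous NAC liver and dead null NAC liver, while Cyp2c70 and Cyp2c69 are lowest in dead null NAC liver.

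Cyp2b9, a steroid-oxidizing P450 of the CYP2B family, had 103, 100.3, 87.8 and 81.1 CPM in live heterozygous placebo lung, live WT placebo lung, live heterozygous NAC liver and dead null NAC liver. It had 52.7 CPM in live WT NAC liver and 10.9 to 14.2 CPM in the other 3, all of dead pups. Among the CYP2A genes, which hydroxylate coumarin and steroids, Cyp2a12 ran from 78.8 to 225 CPM and Cyp2a22 from 11.9 to 52.6 CPM, and Cyp2a4 was highest in live heterozygous NAC liver with 50.2 CPM against 7.39 to 20.1 elsewhere. Among the CYP2D genes, Cyp2d26 had 734 to 1533 CPM, Cyp2d9 117 to 363 CPM, Cyp2d10 136 to 312 CPM and Cyp2d22 52.5 to 91.5 CPM. Cyp2e1 ran from 505 CPM in dead null NAC lung to 1610 in live heterozygous placebo lung, and Cyp2j5, an arachidonic acid epoxygenase, from 26.2 to 89.5 CPM. Among the CYP4 fatty acid hydroxylases, Cyp4a31 had 57.9 to 273 CPM and Cyp4a32 3.61 to 35.8 CPM, both highest in live WT placebo lung, while Cyp4f13 and Cyp4f15 stayed at 21.5 to 33.6 and 17.7 to 42.0 CPM.

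The highest liver-content library exceeded the lowest by 1.90 times (Cyp8b1) to 2.96 times (Cyp39a1) among 4 bile acid enzymes. The median was 3.44 times over the 37 members and 1.92 times over all genes of at least 10 CPM. Other members were as steady or steadier, such as Cyp4f13 (1.57 times) and Cyp2j6 (1.65 times). Cyp7a1, which sets the rate of bile acid synthesis, had 35.4 to 83.9 CPM in liver content and was 0 in all 7 lung-content libraries. Cyp8b1, which directs synthesis to cholic acid, had 90.6 to 172 CPM, and Cyp27a1, the mitochondrial sterol hydroxylase, 36.5 to 102 CPM. Cyp39a1, an oxysterol hydroxylase, had 70.5 to 209 CPM in liver content and 15.4 to 24.1 CPM in lung content. Cyp27a1 was highest in dead null NAC lung and lowest in live heterozygous placebo lung, the library that was highest for 12 of the 37 members.

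Of the 6 steroid hormone enzymes 4 (Cyp11b1, Cyp11b2, Cyp19a1 and Cyp21a1) never exceeded 3 counts. Cyp17a1, which makes androgen precursors, had 1.78 to 10.8 CPM in liver content, at most 0.111 CPM in lung content and 11.9 CPM in the mixed library. The 5 adrenal markers summed to 351 to 535 CPM in liver content, nearly all from Akr1b7 and Hsd3b1, while the defining Nr5a1 was at or under 3 counts in every library. Cyp11a1, which starts steroid synthesis from cholesterol, stayed at or below 1.42 CPM in every library. Of the vitamin D enzymes, Cyp2r1, which activates vitamin D in liver, had 0.892 to 4.65 CPM in liver content, Cyp27b1 at most 0.892 CPM, and Cyp24a1 none. Of the retinoic acid enzymes only Cyp26b1 reached the minimum.

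Some other values differed between the liver-content libraries high and low for Cyp1a2, in either direction. Nr1i3, the constitutive androstane receptor that induces Cyp2b and Cyp2c genes, had 80.9, 80.8, 65.3 and 43.7 CPM in live heterozygous placebo lung, dead null NAC liver, live WT placebo lung and live heterozygous NAC liver, and 15.6 to 31.9 CPM in the other 4. Cyb5a, the cytochrome b5 that aids many P450 reactions, had 903, 825, 693 and 543 CPM in that order and 352 to 417 CPM in the other 4. Pgrmc1, a heme protein that binds P450s, had 652, 538, 581 and 420 CPM and 249 to 373 CPM. Of the other partners, Cyb5b (96.3 to 130 against 37.6 to 80.9 CPM) and Fdxr (19.8 to 22.3 against 15.6 to 18.1 CPM) were also higher without overlap. Por, Fdx1, Cyb5r3 and Alas1 overlapped. Of the intestinal markers, Fabp2 had 78.7, 75.3, 39.7 and 32.0 CPM and 4.44 to 10.99 CPM in the other 4. Lgals4 had 30.6, 28.0, 20.3 and 18.7 CPM and 10.4 to 20.1 CPM in the other 4, so it overlapped. Vil1 and Cdh17 stayed at or below 2.85 and 0.503 CPM, and the summed list of 4 ran from 17.6 to 110 CPM. Alas2, the heme synthesis enzyme of erythroid cells and an erythroid marker named after its values were seen, had 252, 273, 567 and 1010 CPM in the same order as Nr1i3, and 963 to 1387 CPM in the other 4, so it overlapped. The 5 listed erythroid markers did not all go this way: another was lowest in dead null NAC lung, a library low for Cyp1a2. Alas2 thus does not stand for the list. Of the other listed regulators, Nr0b2 was also higher in the 4 libraries high for Cyp1a2 (20.5 to 28.6 against 3.42 to 13.2 CPM). Ahr (25.5 to 32.3 against 34.7 to 68.3 CPM) and Arnt (35.4 to 46.7 against 54.1 to 77.3 CPM) were lower there without overlap. Hnf4a overlapped. The share of all genes that separate these libraries was not computed. The part of any of these genes in the P450 levels was not tested. The 12 lung markers summed to 65.6 to 105 CPM in liver content, with Lamp3 and Nkx2-1 at or under 3 counts in every such library, and the 5 kidney markers were at most 0.239 CPM.

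The comparison of dead with live pups asks whether P450 levels differ with survival. By the labels the dead libraries are of heterozygous and null pups and the live ones of WT and heterozygous pups, and the dead pups were collected earlier, so survival cannot be told apart from age at collection and only in part from genotype. In liver content (4 dead and 4 live libraries, treatment as a covariate) no member differed by edgeR's quasi-likelihood test at a Benjamini-Hochberg adjusted p under 0.05 and an absolute log2 fold change (log2FC) of at least 1. None of 54 members and none of 12993 genes (0%) passed, with 5 members and 696 genes at an unadjusted p under 0.05. DESeq2 called 38 genes, of which 1 was a member, Cyp3a13. The median log2FC was -0.36 over the members and 0.00 over all genes tested. When single libraries were left out, the member median ran from -0.60 (without live WT NAC liver) to -0.095 (without dead heterozygous placebo liver). Over the 4 libraries whose labels matched their content, a set chosen after seeing the data, it turned to 0.19. The treatment term took up the only placebo library among these 4, dead heterozygous placebo liver. The value of 0.19 therefore sets 1 dead library, dead null NAC liver, against the 2 live NAC libraries.

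Cyp3a13, a CYP3A enzyme that is also made outside the liver, had 674 CPM in dead heterozygous placebo liver, 398 in dead null NAC lung, 148 in dead heterozygous NAC lung and 96.4 in dead null NAC liver, against 128, 104, 91.4 and 66.2 CPM in the live libraries. The groups overlapped. Its log2FC, dead against live, was 1.86 ± 0.47 (SE), with an adjusted p = 0.78 in edgeR and 0.0176 in DESeq2. Cyp2c44, an arachidonic acid epoxygenase, had 77.2 to 105 CPM in dead and 120 to 154 CPM in live libraries, without overlap, and a log2FC of -0.60 ± 0.18 (edgeR adjusted p = 0.78). Cyp2d22 also had separate ranges, 52.5 to 74.6 and 74.7 to 91.5 CPM, whose nearest values differ by less than 1 CPM. These were 2 of 54 members lower in every dead library, beside 1.12% of all genes, and no member was higher in every dead library, beside 1.44%. Without the library labelled dead null NAC liver, 11 genes and 1 member, Cyp2b9, passed, with a log2FC of -2.63 (edgeR adjusted p = 0.011) against -1.61 (adjusted p = 0.78) with it. Over the 4 libraries whose labels matched their content, Cyp2b9 turned to 0.15. The treatment term took up the only placebo library there. The value of 0.15 therefore sets dead null NAC liver (81.1 CPM) against live WT NAC liver (52.7 CPM) and live heterozygous NAC liver (87.8 CPM).

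In lung content (3 dead and 4 live libraries) none of 22 members and none of 13990 genes (0%) passed the edgeR test, with 2 members and 504 genes at an unadjusted p under 0.05, and DESeq2 called 10 genes and no member. The 2 members were Cyp1a1, with a log2FC of -1.47 ± 0.57, and Cyp1b1, with 0.77 ± 0.33, both at an edgeR adjusted p = 0.999. The difference of the dead against live effect between contents was tested as an interaction, and none of 54 members and none of 14175 genes (0%) passed in edgeR. Here 2 members, Cyp3a13 and Cyp2d26, and 550 genes had an unadjusted p under 0.05, and DESeq2 called 5 genes and no member.

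The comparison of NAC with placebo asks whether the treatment changed P450 expression. In lung content (3 NAC and 4 placebo libraries, survival as a covariate), Cyp1a1 fell and Cyp1b1 and Cyp2d22 rose. These 3 of 22 members passed the edgeR test, where 4.86% of 13990 genes passed (372 higher, 2.66%, and 308 lower, 2.2%).

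Cyp1a1, the classical target of the aryl hydrocarbon receptor, had 7.84 CPM in live WT placebo liver, 6.51 in live heterozygous placebo liver, 4.66 in dead heterozygous placebo lung and 1.78 in dead null placebo liver. In the NAC libraries it had 1.15 CPM in live WT NAC lung, 0.418 in live heterozygous NAC lung and 0 in dead heterozygous NAC liver. Every NAC library was below every placebo library. The counts behind these levels were 148, 75, 55 and 16 with placebo and 13, 3 and 0 with NAC. The log2FC was -3.57 ± 0.64 (SE), with an edgeR adjusted p = 0.021. Its promoter with the receptor core stands above, as does that of Cyp1b1, which went the other way.

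Cyp1b1 had 3.87 CPM in live WT placebo liver, 5.12 in live heterozygous placebo liver, 7.54 in dead heterozygous placebo lung and 12.2 in dead null placebo liver, against 17.3 CPM in live WT NAC lung, 8.36 in live heterozygous NAC lung and 15.4 in dead heterozygous NAC liver. The groups overlapped through dead null placebo liver. The log2FC was 1.20 ± 0.33, with an edgeR adjusted p = 0.045. Cyp2d22, a CYP2D enzyme found outside the liver as well, had 12.4, 9.54, 15.6 and 21.5 CPM in the placebo libraries in the same order and 28.2, 31.6 and 24.3 CPM in the NAC libraries. Here the groups did not overlap, and the log2FC was 1.05 ± 0.24 (edgeR adjusted p = 0.030). Separate ranges were found for 1 of 22 members higher with NAC, beside 14.3% of all genes, and for 1 of 22 lower, beside 15.1%.

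Members that did not pass are given as values. Cyp2e1 had 1.43, 2.34 and 2.03 CPM in the placebo libraries of live WT, live heterozygous and dead heterozygous pups and 11.2 CPM in that of dead null pups, against 9.68, 5.57 and 7.41 CPM with NAC. Cyp4f39, a fatty acid hydroxylase of the skin barrier, had 3.50, 2.26, 3.14 and 0.891 CPM with placebo and 1.42, 0.975 and 1.03 CPM with NAC. For both genes the dead null placebo library, the only pup group without a NAC library of lung content, lay on the side of the NAC libraries. With pup group as a block, which rests on the 3 pup groups that have both treatments, 5 members passed: Cyp2e1 with a log2FC of 2.00 (edgeR adjusted p = 0.0062) and Cyp4f39 with -1.35 (adjusted p = 0.034) joined the other 3.

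Of the 3 electron donors Por and Fdx1 rose with NAC and Fdxr did not pass the test. Por, the reductase of the endoplasmic reticulum P450s, had 94.7, 96.5 and 91.8 CPM in the placebo libraries of live WT, live heterozygous and dead heterozygous pups and 232 in that of dead null pups, against 337, 285 and 252 CPM with NAC. Its log2FC was 1.32 ± 0.33 (edgeR adjusted p = 0.037). Fdx1, the mitochondrial ferredoxin, had 21.2, 23.4, 26.6 and 42.5 CPM with placebo and 55.7, 59.1 and 50.3 CPM with NAC, a log2FC of 1.06 ± 0.22 (edgeR adjusted p = 0.025). The groups of both did not overlap, as for 14.3% of all genes higher with NAC. Its reductase Fdxr had 4.61, 3.64, 3.98 and 3.12 CPM with placebo and 2.13, 0.557 and 1.46 CPM with NAC, also without overlap (15.1% of all genes lower with NAC), at a log2FC of -1.41 and an edgeR adjusted p = 0.052. Of the 8 partner genes, these 2 rose and none fell, beside 2.66% and 2.2% of all genes. Of the 12 regulators 6 were tested and none passed both criteria. Rxra, the common partner of nuclear receptors, and Arnt, the partner of the aryl hydrocarbon receptor, passed on p alone, with log2FC of 0.66 (edgeR adjusted p = 0.032) and 0.53 (adjusted p = 0.040). The receptor itself, Ahr, had 77.8 to 119 CPM with placebo and 74.0 to 106 CPM with NAC.

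**Figure D4:**
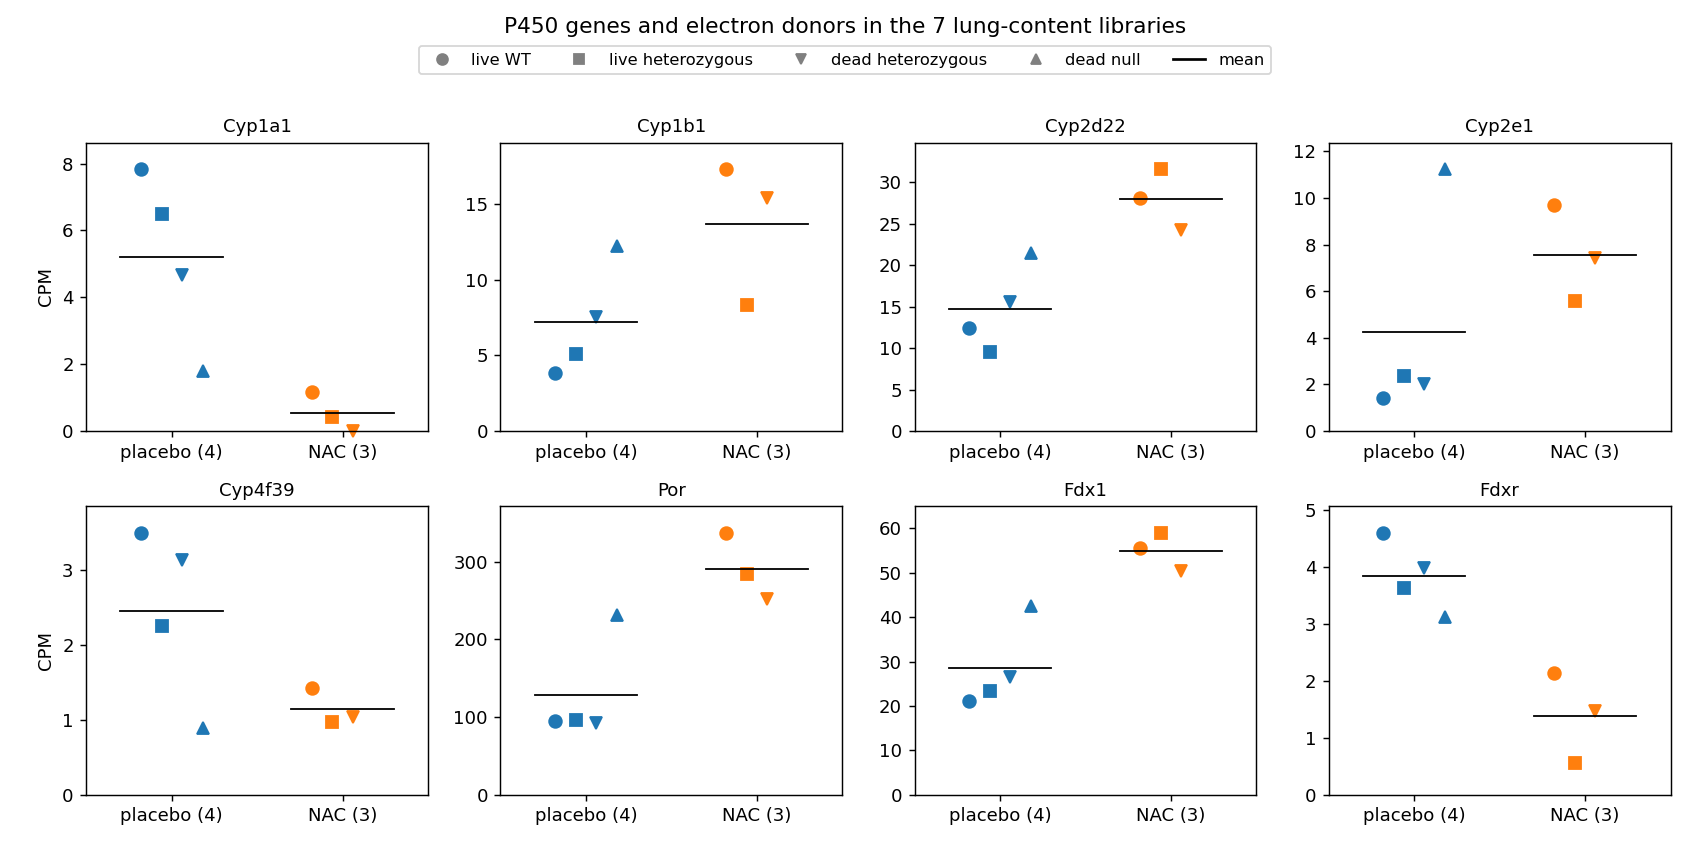
Level in CPM (y axis, from 0) of 5 P450 genes and 3 mitochondrial or microsomal electron donors in the 7 lung-content libraries, by treatment (x axis), with 1 point per library, shape for the pup group and a bar for the mean. The NAC points of Cyp1a1 lie below all placebo points and those of Cyp2d22, Por and Fdx1 above them, with the dead null placebo library nearest to the NAC side.

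These calls depended on single libraries. The member count was 0 without any of the libraries labelled live heterozygous NAC lung, dead heterozygous placebo lung, live WT placebo liver and live heterozygous placebo liver, 1 (Cyp1a1) without live WT NAC lung, 3 without dead heterozygous NAC liver and 5 without dead null placebo liver. Over these 7 fits the log2FC of Cyp1a1 ran from -4.83 to -3.06, that of Cyp1b1 from 0.78 to 1.56 and that of Cyp2d22 from 0.84 to 1.45, and the edgeR adjusted p was under 0.05 in 3, 2 and 2 of them. For Por and Fdx1 it was under 0.05 in 2 of the 7, with log2FC from 1.15 to 1.72 and from 0.93 to 1.38. Under scaling by library size alone, the median over all genes shifted to -0.24, the split over all genes turned to 209 higher and 468 lower, and only Cyp1a1 was called. The summed 12 liver markers, mostly the transferrin Trf, were 187 to 780 CPM with placebo and 750 to 1149 CPM with NAC, while Cyp2d26 and Cyp3a11, both abundant in liver content, stayed at or below 1.48 CPM in both. Rn45s took 4.05% to 19.7% of counts with placebo and 8.16% to 26.2% with NAC. The part of these in the differences was not tested.

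In liver content (5 NAC and 3 placebo libraries) none of 54 members and none of 12993 genes (0%) passed the edgeR test for NAC. Of the members 3 (Cyp39a1, Cyp8b1 and Cyp3a13) and of all genes 257 had an unadjusted p under 0.05, and DESeq2 called 1 gene and no member. Cyp39a1 had 144 to 209 CPM with placebo and 70.5 to 138 CPM with NAC, a log2FC of -0.71 ± 0.25 (edgeR adjusted p = 0.999). Cyp8b1 had 131 to 172 and 90.6 to 132 CPM, which overlapped, and a log2FC of -0.49 ± 0.19 at the same adjusted p. Whether the NAC effect differed between lung and liver content was not tested.

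Compared as labelled, with pup group as a block, no P450 passed the edgeR test for NAC in either tissue. The labelled pairs set opposite contents against each other, not all in the same direction, so a lack of calls does not show like levels. The median log2FC over the members was -2.08 in libraries labelled lung and 6.12 in those labelled liver, against -0.05 and 0.01 over all genes. In the libraries labelled lung none of 54 members and none of 14086 genes (0%) passed, with 1 member and 306 genes at an unadjusted p under 0.05. In those labelled liver none of 54 members and none of 14266 genes (0%) passed, with no member and 61 genes at an unadjusted p under 0.05. DESeq2 called 28 genes and no member in the first and 732 genes and 28 members, all higher with NAC, in the second. Leaving out the library labelled dead heterozygous NAC liver gave 45 members called, and leaving out dead heterozygous placebo liver gave 44, since the labelled liver pairs of the other 3 pup groups all set a liver-content NAC library against a lung-content placebo library.

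Single labelled pairs of a NAC and a placebo library differed for most P450s, in a direction that followed tissue content. In the labelled lung pairs, 5 members were at least 1 log2 unit higher in the NAC library and 41 lower in live WT pups, of 55 tested (27.5% and 28.5% of all genes), and 5 higher and 48 lower in the live heterozygous pair, of 56 (28.4% and 31.9%). In dead pups the order turned, with 38 higher and 8 lower of 52 in heterozygous (25.3% and 25.9%) and 28 higher and 9 lower of 52 in null (22.1% and 24.9%). In the labelled liver pairs 34 were higher and 9 lower of 50 in live WT (24.4% and 25.6%), 41 and 8 of 56 in live heterozygous (25.1% and 25.3%), 4 and 36 of 48 in dead heterozygous (26.1% and 25.8%) and 44 and 5 of 57 in dead null pups (29.1% and 26.7%). In 7 of the 8 pairs 1 library held lung and the other liver content, and in the dead null labelled lung pair the placebo library was the mixed one. The all-gene shares depend on the scaling. With library size alone, the live WT labelled liver pair had 1730 genes higher and 7376 lower of 14318, with 32 and 12 of the 50 members, and the live WT labelled lung pair had 5562 and 2600 of 14020, with 6 and 40 of the 55 members. The median over all genes then lay between -1.05 and 0.59 log2 units over the 8 pairs, against -0.12 to 0.09 with TMM, and the direction in which most members differed was the same in each pair. NAC and tissue content cannot be told apart in these pairs, which have no replicate check.

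**Figure D5:**
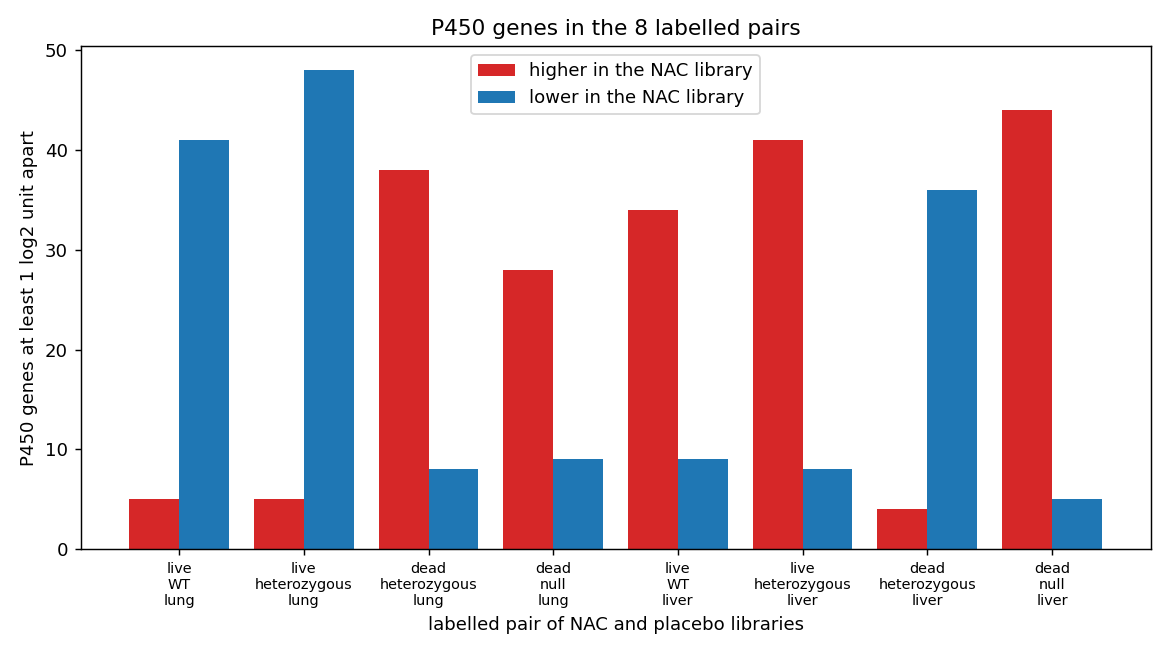
Number of P450 genes (y axis) at least 1 log2 unit higher (red) or lower (blue) in the NAC library than in the placebo library of each labelled pair (x axis). Lower genes prevail in the live lung pairs and the dead heterozygous liver pair, where the NAC library held lung content, and higher genes in the other 5.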

How the data were processed

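RNA of explanted lung and liver was sequenced as 16 pooled libraries. The authors trimmed adapters, used the Omicsoft Sequence Aligner on Ensembl's GRCm38 build and deposited an estimated count per gene symbol, not normalized. R 4.0.3 and edgeR 3.30.3 are named in the submitters' processing notes. The library kit was stranded, and the use of strand in counting is not given in the sources used here. Between 6.5% and 8.24% of a library's values were not whole, and all were rounded. The study tested pairs with an assumed dispersion.

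Here, edgeR 4.0.16 (R 4.3.3) fitted quasi-likelihood models to the counts of each content, or of each labelled tissue, with TMM factors of the libraries compared, a minimum mean of 1 CPM by library size per gene and a prior count of 0.125. A gene was called at a Benjamini-Hochberg adjusted p under 0.05 over all genes tested and an absolute log2FC of at least 1. P-values measure the spread between pooled libraries. The pairing by pup group comes from the labels, which give no replicate numbers. DESeq2 1.42.0, other scalings, filters and designs, and leaving out each library were alternatives, and 4 sets of libraries were chosen after seeing the data. Scripts were tested on simulated data with 200 changed genes. Python 3.11.15, pandas 2.3.3 and matplotlib 3.10.9 were used for tables and plots. Named genes were the called members, members of each role with a mean of at least 10 CPM, the 10 highest in each content, members at or under 3 counts and partner genes of at least 1 CPM. Others named for their spread between libraries were chosen after their values were seen. Members and gene lists were chosen with earlier results of these data known. Of the 96 symbols, 94 were found in GENCODE M21. Intervals and floors cover counting error only. One marker gene, and the summed level of the list that holds it, are not reported here.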

Additional observations from a re-analysis of the deposited data

Results flagged for a closer look

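In groups of 4 libraries of one content and survival label, 82 sets of values of P450 genes whose mean reached 10 CPM were checked for a library standing far from the other 3 on the log2(CPM + 1) scale, and 9 did so. Chance marks about 1 in 20 such sets, and the genes share their libraries. Of the 9, 6 were the library labelled dead null NAC liver among the dead liver-content libraries: Cyp1a2 with 49.9 CPM against 1.19 to 1.34, Cyp3a59 with 37.0 against 2.58 to 3.66, Cyp2b9 with 81.1 against 10.9 to 14.2, Cyp2c37 with 163 against 39.0 to 46.7, Cyp3a44 with 275 against 44.3 to 59.4 and Cyp2a22 with 31.4 against 11.9 to 13.7 CPM. This library held the tissue of its label, while the other NAC library of dead null pups, labelled lung, held liver content as well.

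Among the live liver-content libraries, the one labelled live WT NAC liver stood low for Cyp3a25, with 40.6 CPM against 338 to 521, and for Cyp2a22, with 15.5 CPM against 43.6 to 52.6. The library labelled live WT placebo lung stood high for Cyp2d22, with 91.5 CPM against 74.7 to 77.4.

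P450 genes took 0.153% of the counts of the mixed library, dead null placebo lung, which was used in the comparison of libraries as labelled but in none by content, against 0.023% to 0.042% in the lung-content libraries.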

How the results depend on the processing

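The count of P450 members called for dead against live pups in liver content was 1 with DESeq2 and 0 to 1 when single libraries were left out. For NAC against placebo in lung content it was 1 with library size alone and 5 with pup group as a replicate block. When single libraries were left out it was 0 to 5. Leaving out the dead null pups (chosen after seeing the data) also gave 5. That is the same fit as leaving out dead null placebo liver, and both are counted among the alternatives below. For the libraries labelled liver the member count was 28 with DESeq2 and 0 to 45 when single libraries were left out. Cyp2b9, dead against live in liver content, turned from -1.61 to 0.15 over the 4 libraries with matching labels. There the treatment term took up the only placebo library, so 0.15 rests on 1 dead library, dead null NAC liver. Of 345 results under an alternative, 289 kept their direction and side of the threshold, or stayed within 1.5 times for a count, while 28 lost a call and 13 gained one. The counts for the contents and the summed counts of the 8 labelled pairs moved by less than 1.5 times under another scale or scaling. Split by direction, the genes lower in the live heterozygous labelled liver pair went from 8 to 5 on the log2(CPM + 1) scale, and those higher in the dead heterozygous labelled liver pair from 4 to 6 with library size alone. The replicate block changed no member count in liver content. Members near the mean of 1 CPM, such as Cyp4f39, rest on few counts, and a library is 1 pool, so a difference under the spread between pools was not detectable here.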

Other observations

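The mixed library, labelled dead null placebo lung, held liver P450s at unequal shares of their liver-content levels. Over the 28 members with a liver-content mean of at least 10 CPM and a lung-content mean under 1 CPM, its level was 0.745% to 52.5% of the liver-content mean, with a median of 13.3%. Of 6 liver markers, Alb stood at 7.57% and Afp, the fetal counterpart of albumin, at 7.52% of theirs, Ahsg at 11.7%, Serpina1a at 11.8%, Apoa1 at 15.8% and Cps1, an enzyme of the urea cycle, at 40.9%. Cyp3a25, with 144 CPM, was at 52.5%, Cyp3a11, with 208 CPM, at 35.6% and Cyp8b1, with 30.9 CPM, at 24.7%. Cyp2c69, with 2.02 CPM, was at 0.745%, Cyp2c70, with 3.13 CPM, at 1.82% and Cyp2c44, with 3.24 CPM, at 2.83%. These shares depend on the libraries in the mean, since Cyp2c69 ran from 40.9 to 530 CPM and Cyp3a25 from 40.6 to 521 CPM in liver content. In dead null NAC liver alone, Cyp2c69 had 40.9 CPM and Cyp3a25 372 CPM. Its lung P450s were near the lung-content levels, with 45.9 CPM of Cyp4b1 and 44.6 CPM of Cyp2s1. Cyp1a1, with 8.19 CPM, and Cyp17a1, with 11.9 CPM, were higher here than in any other library.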
